A study of Mus musculus with 8 samples.

Results

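The 8 genes described here mark B cells and the antibody-secreting plasma cells that develop from them. They are *Cd79a*, *Cd79b*, *Ms4a1*, *Cd22*, *Pax5*, *Blk*, *Mzb1* and *Jchain*, chosen by name among the 54146 genes counted by bulk RNA-Seq in macrophages from the epididymal white adipose tissue (eWAT) of 4 mice. The mice were C57Bl6 with no other allele in the labels, had free access to a high fat diet for 24 weeks, and then underwent short-term caloric restriction (stCR) with 30% less food for 2 weeks. The study states that it used male mice, and the labels give no age. From each mouse, cells that were CD45+, CD3-, B220-, Ly6G-, SiglecF- and CD11b+ were sorted into 1 FCGR4+ and 1 FCGR4- library, so all 8 libraries share the diet, the stCR and this gate, and no library from mice without stCR was analysed here. FCGR4 is a receptor for the constant part of IgG antibodies, and the comparison asks how macrophages that carry it differ from those that do not.

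B cells sense antigen through the B cell receptor, a membrane immunoglobulin held by the signaling chains CD79A and CD79B. Upon activation some of them become plasma cells, which switch off much of the B cell program, lose most surface B220 and CD20, and secrete immunoglobulin in large amounts, with the joining chain linking the subunits of IgM and IgA. Obese eWAT is known to hold B cells next to its macrophages. The gate above used B220, a form of CD45 on B cells, to leave B cells out, and gene counts do not separate B220 from the other forms of *Ptprc*.

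The libraries held 35992794 to 66856746 counts each, and a gene with 3 counts or fewer in a library was treated as at the floor there. Levels are given as normalized CPM, the count scaled to the library size after edgeR's TMM normalization. *Fcgr4*, the gene of the sorted protein, had 215, 139, 208 and 236 normalized CPM in the FCGR4+ libraries of mice 1 to 4 and 48.5, 52.2, 81.1 and 82.9 in the FCGR4- libraries, a log2 fold change of 1.61 ± 0.17 (SE, n = 4 mice; edgeR's quasi-likelihood test blocked on mouse, adjusted *P* = 0.0162). Macrophage genes were high in both populations, with *Cd68*, a lysosomal glycoprotein of macrophages, at 1362 ± 281 (SD) CPM per kb of exon among FCGR4+ and 1277 ± 236 among FCGR4- libraries, with 4 mice in each. *Ptprc*, the gene of CD45, lay between 361 and 663 normalized CPM in FCGR4+ and between 315 and 468 in FCGR4- libraries (log2 fold change 0.22, edgeR adjusted *P* = 0.694). In bulk libraries such as these, fewer cells of a type and less RNA per cell cannot be told apart.

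Of the 8 genes, *Jchain* fell in FCGR4+ libraries, *Mzb1*, *Ms4a1* and *Cd79a* had lower means there without passing the threshold, and *Cd79b* and *Cd22* had somewhat higher means, also without passing it. *Pax5* and *Blk* did not pass the filter of the test across genes, which kept the 17095 genes that reached 10 counts in 4 or more of the 8 libraries. At an adjusted *P* value under 0.1, 1 of the 6 tested genes was called, and it was lower in FCGR4+ libraries, where 1.19% of all tested genes were called lower and 0.0819% higher. DESeq2 with mouse and population, the model that the study's methods describe, called 4 of the 6 lower (*Jchain*, *Mzb1*, *Ms4a1* and *Cd79a*). So did edgeR's newer quasi-likelihood method, against 4.87% and 3.35% of all tested genes. The unfiltered edgeR fit, which tested all 8 genes, called the same 4 lower, against 2.35%. Without the mouse block edgeR called 0 of the 6, against 0.275% called lower. 3 of the 8 genes were lower in 4 of 4 mice (*Jchain*, *Mzb1* and *Ms4a1*), against 10.4% of the tested genes, and 2 of them (*Jchain* and *Mzb1*) had populations that did not overlap, against 3.02%. The plot of the 8 genes by mouse shows these differences and how much the mice varied within a population.

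**Figure D1:**
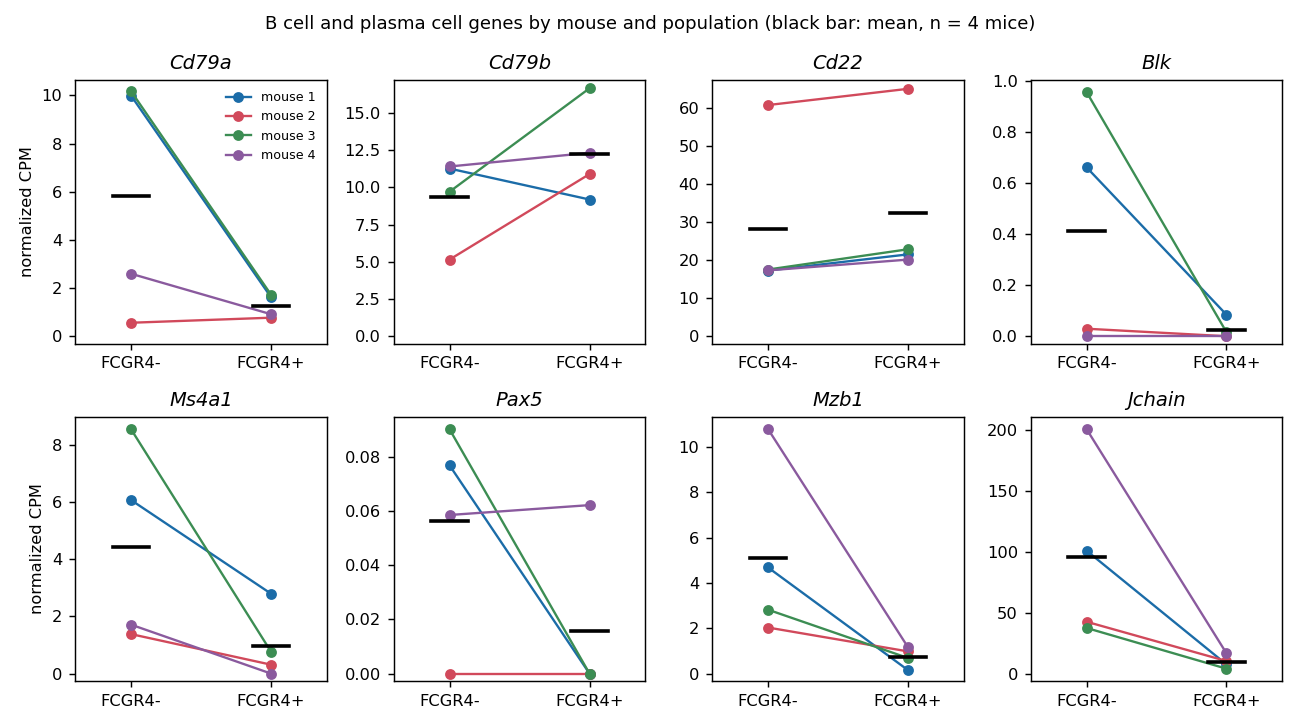
Normalized CPM (y axis, linear, a scale of its own in each panel) of the 8 genes in FCGR4- and FCGR4+ libraries, with 1 line per mouse and a black bar at the mean of 4 mice. *Jchain* and *Mzb1* were highest in the FCGR4- library of mouse 4, *Cd79a*, *Ms4a1* and *Blk* were highest in those of mice 1 and 3, and *Cd22* was highest in both libraries of mouse 2.

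*Jchain* encodes the joining chain of secreted IgM and IgA and lies on the minus strand of chromosome 5 of mm10 from 88519809 to 88527891, with no exon base shared with another gene of the annotation used for counting. It had 101, 42.6, 37.5 and 201 normalized CPM in the FCGR4- libraries of mice 1 to 4, from 6570, 1449, 2078 and 13726 counts. In FCGR4+ libraries it had 7.52, 10.3, 4.01 and 16.7 normalized CPM, from 446, 495, 251 and 804 counts. Every FCGR4+ library therefore lay below every FCGR4- library, and the per-mouse log2 ratios were -3.74, -2.05, -3.22 and -3.59. The fitted log2 fold change was -3.17 ± 0.30 (SE, n = 4 mice; edgeR adjusted *P* = 0.00902), 8.97-fold lower in FCGR4+ libraries. Leaving out each mouse in turn gave -3.49 to -2.96, with adjusted *P* values between 0.0179 and 0.0445 in edgeR's test. Mice 1 and 2, whose animal IDs share a prefix, gave -2.90 (edgeR adjusted *P* = 0.0747) and mice 3 and 4 gave -3.44 (0.0540). Without the mouse block, where the spread between mice enters the error, the adjusted *P* of edgeR's test was 0.107, the highest over its alternatives, and the lowest was 6.7e-26 by DESeq2.

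The sequence around the start of *Jchain* is shown because it is the gene that was called, and those of *Cd79a* and *Cd22* follow with their values for contrast. They are RefSeq promoters of GRCm38.p6, the assembly of mm10, from 250 bases before to 50 bases after the start, printed 5′ to 3′ on the gene's strand, and 4 of the 8 genes had one. The capitals mark matches on either strand to 3 motifs, which were the octamer ATGCAAAT, the EBF palindrome CCCNNGGG and the ETS core AGGAAGT. The motifs were searched one by one, and no 2 matches overlapped in these windows. Among 32851 promoters of the same length, 1.74% held the octamer, 13.7% the EBF palindrome and 9.35% the ETS core. The window of *Jchain*, on the minus strand at chr5:88527848-88528147, held none of these motifs. The window of *Pax5*, which was not tested across genes, also held none and is not printed.

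Jchain: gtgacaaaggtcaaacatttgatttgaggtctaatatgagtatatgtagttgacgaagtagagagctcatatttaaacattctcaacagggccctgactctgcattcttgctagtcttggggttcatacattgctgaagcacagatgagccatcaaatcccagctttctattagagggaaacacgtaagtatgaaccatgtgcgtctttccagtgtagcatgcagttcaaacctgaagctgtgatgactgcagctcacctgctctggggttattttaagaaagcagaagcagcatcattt

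*Mzb1* encodes a chaperone of the endoplasmic reticulum that helps immunoglobulin assembly in marginal zone B cells and plasma cells, and it lies on chromosome 18. It had 4.68, 2.03, 2.82 and 10.8 normalized CPM in the FCGR4- libraries of mice 1 to 4, from 304, 69, 156 and 736 counts, and 0.152, 0.978, 0.687 and 1.16 in the FCGR4+ libraries, from 9, 47, 43 and 56 counts. The populations did not overlap, and FCGR4- mouse 4 was highest, as for *Jchain*. The fitted log2 fold change was -2.72 ± 0.63 (SE, n = 4 mice), which missed the threshold in edgeR's test (adjusted *P* = 0.167). It was -2.11 without mouse 1 and -3.27 without mouse 2. It passed by DESeq2 (adjusted *P* = 0.000159), by edgeR's newer quasi-likelihood method (0.0314) and by edgeR's test with no filter on low counts (7.1e-05), and the adjusted *P* over all alternatives ran from 7.1e-05 to 0.573. In a later release of the annotation, 53.5% of the 50-base words of *Mzb1* also occurred in *SPATA24*, whereas the release used for counting had no shared exon base there.

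Immunoglobulin genes, whose products plasma cells secrete, were in part lower in FCGR4+ libraries. *Igkc*, the constant region of the kappa light chain, had 428, 170.5, 244 and 1374 normalized CPM in the FCGR4- libraries of mice 1 to 4 and 21.5, 59.1, 22.9 and 91.7 in the FCGR4+ libraries. In FCGR4+ libraries it fell by 3.33 ± 0.47 on the log2 scale (SE, n = 4 mice; edgeR adjusted *P* = 0.0423), but not past the threshold without mouse 1 (-2.98, adjusted *P* = 0.114) or without mouse 4 (-3.11, adjusted *P* = 0.136). *Ighm*, the heavy chain of IgM, had 1159, 400.2, 460.3 and 2307 normalized CPM in the FCGR4- libraries and 319, 167, 199 and 291 in the FCGR4+ libraries. It fell by 1.82 ± 0.31 on the log2 scale (edgeR adjusted *P* = 0.0666), but missed the threshold without mouse 1 (adjusted *P* = 0.210) or mouse 2 (0.137). FCGR4- mouse 4 was highest for both genes, and neither gene's populations overlapped.

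Of the 12 immunoglobulin constant region genes, 8 were tested, 3 fell (*Ighm*, *Igkc* and *Iglc3*) and none rose, where 1.19% of all tested genes fell. Their median log2 fold change was -2.75, against -0.003 over all tested genes. *Iglc3*, a lambda light chain gene with close paralogs, had a log2 fold change of -2.43 (edgeR adjusted *P* = 0.0686), and its adjusted *P* was between 0.120 and 0.218 without mouse 2, 3 or 4. *Igha*, the heavy chain of IgA, had 55.4, 0.324, 30.2 and 46.0 normalized CPM in FCGR4- and 0.0506, 0.146, 1.42 and 2.74 in FCGR4+ libraries, but did not pass (-4.92 ± 1.04, edgeR adjusted *P* = 0.130). FCGR4- mouse 2 thus had almost no *Igha* while the other 3 FCGR4- libraries did. *Ighd*, the heavy chain of IgD, was lower in 2 of 4 mice (-0.54 ± 0.53, edgeR adjusted *P* = 0.735). *Ighg1* and *Ighg3* did not pass the filter and had no count in any FCGR4+ library. In the FCGR4- libraries of mice 1 to 4, *Ighg1* had 3, 0, 17 and 21 counts and *Ighg3* had 70, 4, 10 and 47. *Ighe* had no count in any of the 8 libraries. Without the mouse block, 0 of the immunoglobulin genes passed by edgeR's test, whereas 6 were lower by DESeq2, against 4.87% of all tested genes.

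Within a library, *Jchain* kept close to *Igkc*. The ratio of their levels per kb of exon lay between 0.0309 and 0.0740 over all 8 libraries, a 2.39-fold range, while *Jchain* itself spanned 50.2-fold and *Igkc* 64.0-fold. The ratio lay between 0.0368 and 0.0740 in FCGR4+ and between 0.0309 and 0.0529 in FCGR4- libraries, so the populations overlapped. The ratio of *Jchain* to *Ighm* did not overlap, with 0.0151 to 0.0461 in FCGR4+ and 0.0611 to 0.0798 in FCGR4- libraries. *Ighm* thus stood higher relative to *Jchain* in every FCGR4+ library. These ratios describe 8 libraries from 4 mice and were not tested.

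**Figure D2:**
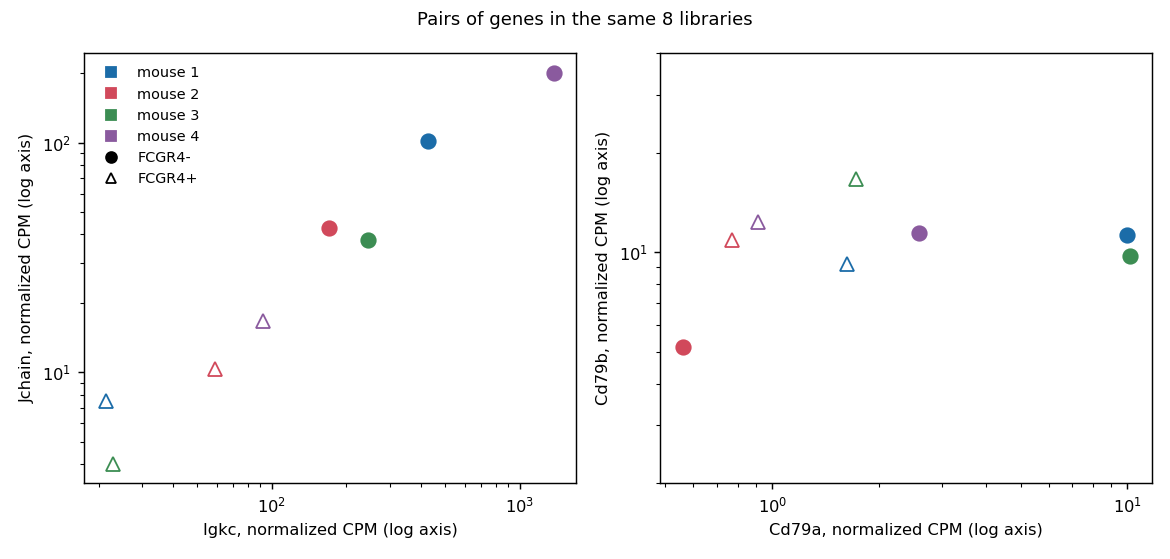
Normalized CPM of *Jchain* against *Igkc* (left) and of *Cd79b* against *Cd79a* (right) in the 8 libraries, with log axes, filled circles for FCGR4-, open triangles for FCGR4+ and 1 color per mouse. *Jchain* and *Igkc* moved together over both populations, whereas *Cd79b* stayed between 5.15 and 16.7 while *Cd79a* ran from 0.559 to 10.2.

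Neither signaling chain of the B cell receptor passed the threshold, and the difference between the 2 genes was not tested. *Cd79a*, on the plus strand of chromosome 7 from 24897381 to 24902197, had 9.99, 0.559, 10.2 and 2.59 normalized CPM in the FCGR4- libraries of mice 1 to 4 and 1.62, 0.770, 1.73 and 0.913 in the FCGR4+ libraries. FCGR4- mice 1 and 3 were high, FCGR4- mouse 2 was the lowest library of all 8, and the populations overlapped. *Cd79a* was lower in FCGR4+ cells of 3 of 4 mice, with a log2 fold change of -1.68 ± 0.54 (SE, n = 4 mice) that did not pass the threshold in edgeR's test (adjusted *P* = 0.345). It passed by DESeq2 (adjusted *P* = 0.0337), by edgeR's newer method (0.0517) and with no filter on low counts (0.0140), and the adjusted *P* over all alternatives ran from 0.0140 to 0.948.

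*Cd79b*, on the minus strand of chromosome 11 from 106311341 to 106314762, had 11.3, 5.15, 9.71 and 11.4 normalized CPM in the FCGR4- libraries of mice 1 to 4 and 9.19, 10.9, 16.7 and 12.3 in the FCGR4+ libraries. It was higher in FCGR4+ cells of 3 of 4 mice and lower in mouse 1, and the populations overlapped. The log2 fold change was 0.41 ± 0.26 (SE, n = 4 mice; edgeR adjusted *P* = 0.622), and 2 standard errors to each side gave -0.10 to 0.93, a range that reaches from just below no change to nearly 2-fold higher. Per kb of exon, *Cd79b* was 5.78 to 14.4 times the level of *Cd79a* in FCGR4+ libraries and 0.973 to 9.38 times in FCGR4- libraries. The pair was nearly even only in FCGR4- mice 1 and 3, with ratios of 1.15 and 0.973. The window of *Cd79a*, on the plus strand at chr7:24897247-24897546, held the ETS core 55 bases before the start, and it is printed here with that match in capitals.

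Cd79a: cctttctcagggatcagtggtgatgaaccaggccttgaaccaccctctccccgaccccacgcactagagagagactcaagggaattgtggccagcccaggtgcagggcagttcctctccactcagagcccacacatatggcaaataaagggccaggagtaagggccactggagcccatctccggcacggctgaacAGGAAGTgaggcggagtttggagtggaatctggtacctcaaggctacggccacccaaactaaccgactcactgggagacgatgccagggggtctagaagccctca

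*Ms4a1*, *Blk* and *Pax5* are genes that mature B cells carry and plasma cells largely switch off. *Ms4a1*, which encodes CD20 and lies on the minus strand of chromosome 19 from 11249675 to 11266241, had 6.08, 1.38, 8.56 and 1.71 normalized CPM in the FCGR4- libraries of mice 1 to 4 and 2.80, 0.312, 0.767 and 0 in the FCGR4+ libraries. FCGR4- mice 1 and 3 were high, FCGR4+ mouse 4 had no count, and FCGR4+ mouse 1 lay above FCGR4- mice 2 and 4. The gene was lower in FCGR4+ cells of 4 of 4 mice, with a log2 fold change of -2.88 ± 0.82 (SE, n = 4 mice) that did not pass in edgeR's test (adjusted *P* = 0.265). The size varied with the mice in the fit, from -3.67 without mouse 1 to -2.23 without mouse 4, and was -1.56 in mice 1 and 2 alone and -4.57 in mice 3 and 4 alone. It passed by DESeq2 (adjusted *P* = 0.000747), by edgeR's newer method (0.0717) and with no filter (0.000228), and the adjusted *P* over all alternatives ran from 0.000228 to 0.905.

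*Blk*, a Src family kinase of B cells on the minus strand of chromosome 14 from 63372836 to 63417037, had 43, 1, 53 and 0 counts in the FCGR4- libraries of mice 1 to 4 and 5, 0, 1 and 0 in the FCGR4+ libraries. Its signal thus came from mice 1 and 3, the same libraries in which *Cd79a* and *Ms4a1* were high. The mean per-mouse log2 ratio was -1.91 ± 1.88 (SD, n = 4 mice; exact two-sided permutation test, *P* = 0.25, the smallest that *Blk* could reach, since mouse 4 had no count in either library). The unfiltered edgeR fit gave *Blk* a log2 fold change of -3.95 (adjusted *P* = 0.293) and *Pax5* one of -2.61 (adjusted *P* = 0.927). The mean per-mouse log2 ratio of *Blk* was -2.55 with a prior count of 0.5 and -1.45 with one of 5, in place of the 2 used above. *Pax5*, the transcription factor that holds B cell identity, lies on the minus strand of chromosome 4 from 44524757 to 44710487. It had 5, 0, 5 and 4 counts in the FCGR4- libraries of mice 1 to 4 and 0, 0, 0 and 3 in the FCGR4+ libraries, so it was at or near the floor of 3 counts in every library (exact two-sided permutation test over n = 4 mice, *P* = 0.5). A difference in *Pax5* was not detectable at this depth, and 8.60% of its exon bases are shared with 2 genes on the other strand, where pairs were left uncounted.

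*Cd22*, a sialic acid-binding receptor that dampens B cell receptor signaling, lies on the minus strand of chromosome 7 from 30865402 to 30880342. It had 17.2, 60.7, 17.5 and 17.3 normalized CPM in the FCGR4- libraries of mice 1 to 4 and 21.5, 64.9, 22.8 and 20.1 in the FCGR4+ libraries. Mouse 2 stood apart in both populations, and the other 3 mice lay within 17.2 to 22.8. *Cd22* was higher in FCGR4+ cells of 4 of 4 mice, but by little, with a log2 fold change of 0.25 ± 0.13 (SE, n = 4 mice; edgeR adjusted *P* = 0.569) and an interval of 2 standard errors from -0.01 to 0.52. Of the exon bases of *Cd22*, 9.50% are shared with *Gm29439* on the other strand, which had 0 counts in every library, and 7.84% of its 50-base words occurred in other genes. The window of *Cd22*, on the minus strand at chr7:30878979-30879278, held the EBF palindrome 48 bases before the start, shown in capitals.

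Cd22: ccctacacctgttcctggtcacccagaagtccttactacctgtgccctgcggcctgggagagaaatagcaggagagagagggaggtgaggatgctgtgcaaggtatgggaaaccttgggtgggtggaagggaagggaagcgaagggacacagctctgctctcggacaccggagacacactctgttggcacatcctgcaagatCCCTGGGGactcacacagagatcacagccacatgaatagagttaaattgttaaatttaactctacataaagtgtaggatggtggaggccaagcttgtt

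Set side by side per kb of exon, the genes fell in a different order in the 2 populations. In FCGR4- libraries *Jchain* was highest at 38.0 ± 30.2 CPM per kb (SD, n = 4 here and below), and its lowest library, at 14.9, lay above every library of the other 7 genes. *Cd79b* (6.56 ± 2.05), *Mzb1* (5.61 ± 4.38), *Cd22* (5.58 ± 4.297) and *Cd79a* (4.00 ± 3.42) followed, and these 4 did not differ beyond their spread. *Ms4a1* (0.717 ± 0.563), *Blk* (0.153 ± 0.176) and *Pax5* (0.0064 ± 0.0045) were lowest, and each of them overlapped the gene above it in this order. In FCGR4+ libraries the order was *Cd79b* (8.58 ± 2.24), *Cd22* (6.41 ± 4.32) and *Jchain* (3.83 ± 2.13), whose ranges overlapped as neighbors, then *Cd79a* (0.862 ± 0.333) and *Mzb1* (0.823 ± 0.487), which also overlapped, then *Ms4a1* (0.157 ± 0.204), *Blk* (0.0093 ± 0.0149) and *Pax5* (0.0018 ± 0.0035), each again overlapping its neighbor.

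**Figure D3:**
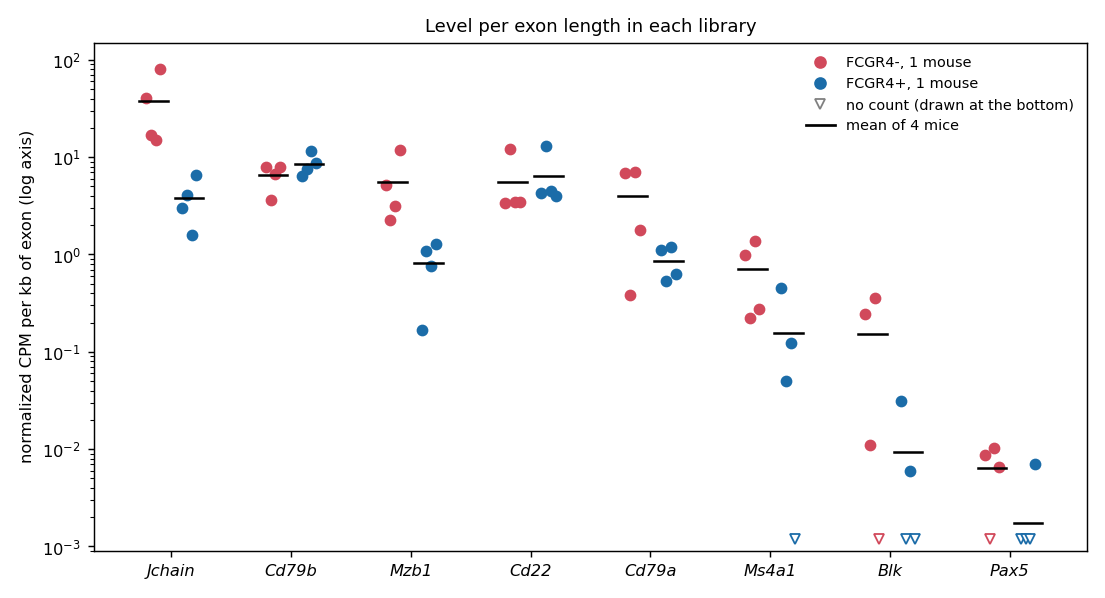
Level per exon length (normalized CPM per kb, log axis) of the 8 genes in each library, with red for FCGR4-, blue for FCGR4+, open triangles at the bottom for libraries with no count, and black lines at the means of 4 mice. *Jchain* and *Mzb1* separate the populations, while the ranges of *Cd79b* and *Cd22* overlap widely.

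Of 19 other B cell surface genes, 17 were tested, 2 fell and 1 rose in FCGR4+ libraries, against 1.19% and 0.0819% of all tested genes. Their median log2 fold change was -1.93, and 11 of the 17 lay below 0. By DESeq2 7 were lower and 1 was higher, where 832 and 192 of all 17095 tested genes were. By edgeR's newer method 5 were lower, against 3.35% of all tested genes, and 1 was higher, where 57 of all tested genes were. *Siglecg*, an inhibitory receptor of B-1 cells, fell by 3.46 ± 0.50 on the log2 scale (SE, n = 4 mice; edgeR adjusted *P* = 0.0487) and *Cd24a*, a surface glycoprotein of B cells and many other leukocytes, by 2.19 ± 0.26 (edgeR adjusted *P* = 0.0232). *Cd72*, a receptor shared by B cells and macrophages, rose by 0.99 ± 0.18 (edgeR adjusted *P* = 0.0828), from 36.6 to 130.1 normalized CPM in FCGR4- libraries to 82.9 to 178 in FCGR4+ libraries. With a mouse left out, the log2 fold changes ran from -3.82 to -3.07 for *Siglecg*, from -2.38 to -1.88 for *Cd24a* and from 0.84 to 1.17 for *Cd72*. The adjusted *P* of edgeR's test then missed the threshold for *Siglecg* without mouse 1, 2 or 4 (0.137 to 0.174), for *Cd24a* without mouse 2 (0.107), and for *Cd72* without mouse 2, 3 or 4 (0.193 to 0.260). *Cd37* and *Cd40*, which macrophages also express, had log2 fold changes of 0.08 and 0.19 and did not pass.

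None of the 15 B cell transcription factors passed in edgeR's test, with a median log2 fold change of -0.39. By DESeq2 6 were lower, against 4.87% of all tested genes, and by edgeR's newer method 3 were, against 3.35%. The most abundant of them, *Irf8*, *Mef2c*, *Ikzf1* and *Tcf3*, which myeloid cells or most leukocytes also use, had log2 fold changes between -0.33 and 0.21. *Spib* and *Pou2af1*, a factor and a coactivator of the B lineage chosen here after their values were seen, had 0.765 to 1.97 and 0.441 to 2.96 normalized CPM in FCGR4- libraries and at most 0.135 and 0.332 in FCGR4+ libraries, with adjusted *P* values of 0.153 and 0.306 in edgeR's test. *Pou2f2*, which encodes the octamer-binding factor OCT2, and *Bach2* lay on the other side of 0, with log2 fold changes of 0.46 ± 0.22 and 0.21 ± 0.28 that did not pass either. Of the 20 genes of B cell receptor signaling, 0 passed in edgeR's test, 0 by its newer method and 1, which was higher, by DESeq2, while 2 were higher at an unadjusted *P* under 0.05. Their median log2 fold change was -0.11. *Fcgr2b*, *Ptpn6*, *Lyn* and *Syk*, an inhibitory Fc receptor, a phosphatase and 2 kinases that macrophages share with B cells, had log2 fold changes between -0.22 and 0.21.

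**Figure D4:**
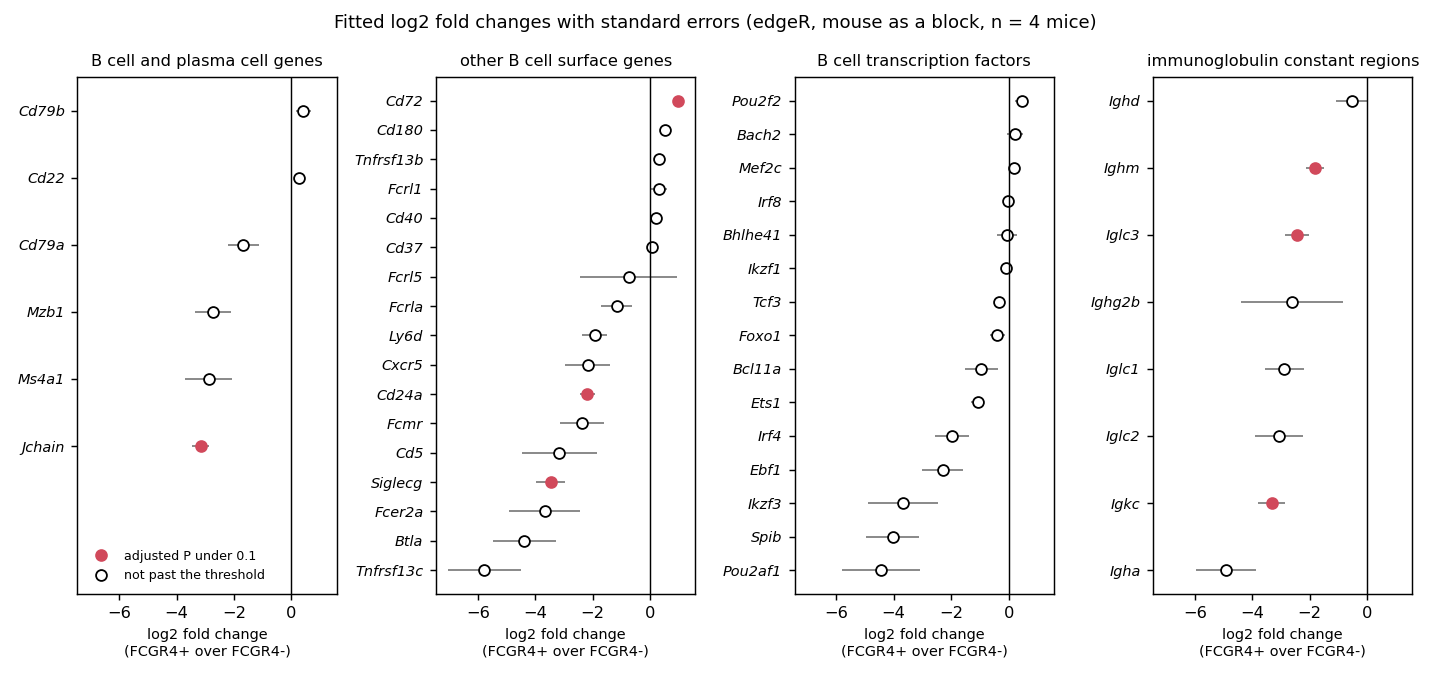
Fitted log2 fold change of FCGR4+ over FCGR4- libraries (x axis, with SE bars) for the tested genes among the 8 B cell and plasma cell genes, other B cell surface genes, B cell transcription factors and immunoglobulin constant regions, with red points for an adjusted *P* under 0.1. In the first 3 panels, genes on both sides of 0 appear, and in the last all 8 genes lie below 0.

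Genes of plasma cells and of the secretory pathway did not pass either. Of 18 tested, 0 passed in edgeR's test and by its newer method, with a median log2 fold change of -0.20. By DESeq2 3 were lower, against 4.87% of all tested genes. *Hsp90b1*, *Pdia4*, *Xbp1* and *Edem1*, which serve protein folding and its control in all secreting cells, had log2 fold changes between -0.24 and 0.03. Genes closer to plasma cells, chosen here after their values were seen, had lower means in FCGR4+ libraries without passing in edgeR's test. They were *Eaf2* (log2 fold change -4.89 ± 1.66, lower in 4 of 4 mice, adjusted *P* = 0.376), *Derl3* (-1.84 ± 0.81, 3 of 4 mice, 0.515), *Tnfrsf17*, which encodes the plasma cell survival receptor BCMA (-0.95 ± 0.45, 4 of 4 mice, 0.547), *Fkbp11* (-0.94 ± 0.43, 4 of 4 mice, 0.531) and *Sdc1*, which encodes syndecan-1 (-0.75 ± 0.23, 4 of 4 mice, 0.306). *Eaf2* and *Sdc1* passed by DESeq2 (adjusted *P* = 0.0036 and 0.0301). Other genes of the list that plasma cells carry lay on the other side of 0, also without passing, among them *Cd38* (0.51 ± 0.28, higher in 3 of 4 mice) and *Slamf7* (0.34 ± 0.16, higher in 3 of 4 mice). Among 12 ligands that keep B cells alive or guide them, 9 were tested and 1 fell, against 1.19% of all tested genes. This was *Cxcl12*, a chemokine of stromal cells, which fell by 1.25 ± 0.24 on the log2 scale (edgeR adjusted *P* = 0.0967) and missed the threshold without any 1 of the mice (adjusted *P* between 0.109 and 0.254). *Tnfsf13b*, which encodes the B cell survival factor BAFF, had 2.62 to 5.28 normalized CPM in FCGR4+ and 1.74 to 4.33 in FCGR4- libraries (log2 fold change 0.31, edgeR adjusted *P* = 0.686). *Tnfsf13* had a log2 fold change of 0.13 ± 0.15. *Cxcl13* (0.10 ± 0.46) and *Il6* (-0.16 ± 0.53) varied between mice, with per-mouse log2 ratios from -1.03 to 1.83 and from -1.41 to 1.79.

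Several markers of T cells, mast cells and conventional dendritic cells were, like *Jchain*, lower in FCGR4+ libraries. Their part in these results was not tested. Among FCGR4- libraries, *Jchain* was highest in mouse 4, where the T cell markers were lowest. The T cell marker *Trac* had 5.233, 6.65, 3.106 and 0.9524 normalized CPM in the FCGR4- libraries of mice 1 to 4. The mast cell marker *Cpa3* had 527.2, 228.8, 29.65 and 76.27 there, highest in mouse 1. Of 10 T cell markers, 6 were lower in FCGR4+ libraries, with summed levels of 2.22 to 11.9 normalized CPM against 13.8 to 53.2 in FCGR4- libraries, and *Cd3e*, a chain of the T cell receptor complex, at 0.166 to 1.29 against 1.76 to 3.68. With 3 mice, 0 of the 10 T cell markers passed without mouse 1 or without mouse 2, 1 passed without mouse 4 and 6 passed without mouse 3, while the summed level was lower in FCGR4+ cells of 4 of 4 mice. Of 9 tested mast cell and basophil markers, 9 were lower, with sums of 14.5 to 30.5 against 391.5 to 2147, and *Mcpt8*, which was not tested, had 71, 0, 1 and 13 counts in the FCGR4- libraries of mice 1 to 4 and 0 in all FCGR4+ libraries. Of 9 conventional dendritic cell markers, 5 were lower, with sums of 13.6 to 22.6 against 63.7 to 129, and 2 passed without mouse 1 or without mouse 2. None of 9 plasmacytoid dendritic cell markers passed in edgeR's test. By DESeq2, 2 were lower and 1 was higher, where 832 and 192 of all 17095 tested genes were. By edgeR's newer method 1 was lower, against 3.35% of all tested genes. *Siglech*, which defines these cells, lay between 0 and 0.623 normalized CPM in FCGR4+ and between 0.0883 and 1.08 in FCGR4- libraries. None of 12 macrophage markers passed in edgeR's test or by its newer method, 7 were higher at an unadjusted *P* under 0.05 and 7 by DESeq2, and their sums of 30600 to 55090 and 24430 to 48520 overlapped between populations but were higher in FCGR4+ cells of 4 of 4 mice.

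The genes most like the 6 tested ones were sought by the correlation of log2 CPM with their mean standardized level over the 8 libraries, as a description. That mean joined *Cd79b* and *Cd22*, with log2 fold changes above 0, to 4 genes with log2 fold changes below 0. It therefore need not follow any single gene of the 6, and the genes found are not markers of B cells on this ground. They were *Uchl1*, a deubiquitinating enzyme (*r* = 0.965), *Acadvl*, an enzyme of mitochondrial fatty acid oxidation (*r* = 0.965), *Col6a2*, a collagen chain (*r* = 0.934), *Ltbp4*, a matrix protein that binds latent TGF-β (*r* = 0.927), and *Cd248*, a surface protein of stromal cells (*r* = 0.925), over 8 libraries that share 4 mice and 2 populations. *Col6a2* and *Cd248* had 11.9 to 48.5 and 7.83 to 32.3 normalized CPM in FCGR4- libraries and 4.998 to 6.74 and 2.95 to 3.95 in FCGR4+ libraries. *Acadvl* varied far less, from 38.6 to 49.4 in FCGR4- and 34.7 to 40.1 in FCGR4+ libraries. *Uchl1* was low throughout, at 0.324 to 0.938 in FCGR4- and 0.219 to 0.437 in FCGR4+ libraries. For both of these genes the populations overlapped.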

How the data were processed

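Bulk RNA-Seq libraries of FCGR4+ and FCGR4- eWAT macrophages from 4 mice were analysed, paired by the mouse number in the labels. The authors aligned the reads with STAR to mm10 and assigned them to genes with featureCounts 1.6.3 and GENCODE vM18. Per the file headers, read pairs were counted, pairs with several mapping places were counted at each, strand was not used, and pairs falling on exons of more than 1 gene went uncounted, so genes with near-identical copies share counts. The deposited table holds raw counts for 54146 genes, and 0 per-sample columns were left out.

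The 17095 genes that reached 10 counts in 4 or more of 8 libraries were scaled by TMM. The test was the quasi-likelihood one of edgeR 4.0.16 (R 4.3.3, default method), blocked on mouse, with Benjamini-Hochberg adjustment over all tested genes, with a threshold of 0.1. Standard errors equal the size of the fold change (log2) over the root of its F statistic, and per-mouse log2 ratios use a prior count of 2. *Blk* and *Pax5* were compared by an exact sign-flip permutation test of these ratios. The populations of the same mouse deviated together (correlations 0.291 to 0.428 over genes, against -0.336 to 0.0116 between mice), and no 2 libraries of a population were duplicates. The script was tested on simulated data.

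Named genes were the 8 genes, *Fcgr4*, called genes of the fixed lists or otherwise up to 4 of their most abundant genes, a few defining genes, and the 5 most similar genes. Called genes of the T cell, mast cell and dendritic cell lists were mostly counted and not named. Some further genes of the lists were named after their values were seen. The genes and lists were chosen with earlier results of these data known. From the B cell surface list, 1 gene is not reported here. Promoters came from RefSeq and 50-base words from a later GENCODE release. Alternatives were no mouse block, DESeq2 1.42.0 with mouse and population, edgeR's newer method, RLE factors, library size alone, other filters, a threshold of 0.05 and other prior counts. Each mouse was also left out, and mice 1 and 2 or 3 and 4 were fitted alone, since their animal ID prefixes differ. The study itself used DESeq2 with mouse and population, in another version.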

Additional observations from a re-analysis of the deposited data

Results flagged for a closer look

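In 3 of 27 groups of 4 values examined, 1 mouse stood apart from the others, where chance sets about 1 in 20 apart. *Cd22* in mouse 2 was apart in both populations: its FCGR4+ library had 64.9 normalized CPM against 20.1 to 22.8 in the others, a gap of 0.939 of the whole range, and its FCGR4- library had 60.7 against 17.2 to 17.5, a gap of 0.994. *Pax5* in FCGR4+ libraries had 0.0623 normalized CPM in mouse 4 and 0 in the others, a gap of 1 times the range that rests on 3 counts.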

How the results depend on the processing

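The direction of the log2 fold changes of the 6 tested genes and *Fcgr4* held under every alternative that tested them. The 217 genes past the threshold became 48 with no replicate block, 1024 by DESeq2, 629 by edgeR's newer method, 1054 with no filter on low counts, 115 in mice 1 and 2 alone, 72 in mice 3 and 4 alone, 76 at an adjusted *P* under 0.05, and 78 to 162 when each mouse was left out. Of the calls, 93.5% were lower in FCGR4+ libraries in the edgeR fit with the mouse block and 81.2% by DESeq2. Of the 8 genes, 1 was called in the edgeR fit with the mouse block, 0 with no replicate block, where *Jchain* had a log2 fold change of -3.31, and 4 by DESeq2, by edgeR's newer method and with no filter. The other 3 had log2 fold changes under these methods of -1.66, -2.05 and -1.66 (*Cd79a*), -3.06, -2.34 and -2.86 (*Ms4a1*), and -2.75, -2.71 and -2.71 (*Mzb1*). The 28 called genes of the lists became 9 with no replicate block, 63 by DESeq2, 62 with no filter, and 12 to 24 when each mouse was left out. With no filter the median of all genes moved to -0.16. The cause of these shifts was not tested. *Pax5* and *Blk* did not pass the filter on low counts, and at 0 to 5 counts a library a difference in *Pax5* was not detectable.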
